A study of Homo sapiens with 8 samples.

Results

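The 44 genes examined here encode the protein folding machinery of the endoplasmic reticulum (ER), the sensors and factors of the unfolded protein response (UPR), and the main chaperones of the cytosol and the mitochondrion. They were taken by gene name from a table of 58735 genes, and all 44 were found. They fall into 15 ER chaperones and foldases, 4 genes of ER-associated degradation (ERAD), 3 UPR sensors and factors, 12 cytosolic heat shock genes, 2 mitochondrial chaperones and 8 subunits of the cytosolic chaperonin CCT. RNA-seq read counts came from 8 libraries of cells labelled A549, a human cell line from a lung adenocarcinoma. In 4 libraries the cells carried a lentiviral empty vector (EV group), and in 4 they overexpressed Flag-tagged KRT19 from a lentiviral vector (KRT19 group). Both groups were transduced and kept under puromycin selection as stable lines, the labels give no stress treatment, and the sources used here do not say whether a line was a clone or a pool. KRT19 is the gene of keratin 19, which forms intermediate filaments in epithelia.

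Secreted and membrane proteins fold in the ER, where HSPA5 (BiP) holds unfolded chains, calnexin and calreticulin bind glycoproteins, and protein disulfide isomerases form disulfide bonds. When unfolded protein accumulates, the kinase and nuclease IRE1 (ERN1), ATF6 and the transcription factor XBP1 raise the transcription of ER chaperones and of ERAD, which returns misfolded proteins to the cytosol for destruction. The cytosol has its own arm, in which HSF1 drives HSP70, HSP90 and small heat shock proteins. HSP90 folds kinases and steroid receptors, and CCT folds actin and tubulin. Cytosolic chaperones are also known to bind keratin filaments.

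Genes of the ER and cytosolic arms are known to carry different control sequences, which are shown here for that reason. A promoter window was available from RefSeq (GRCh38.p14) for 41 of the 44 genes, covering 250 bases before to 50 after the gene start that RefSeq gives. The windows were searched on both strands for exact matches to 4 motifs. A window without a match can still hold a variant of a motif, and sites outside the windows were not searched. The ER stress response element (ERSE, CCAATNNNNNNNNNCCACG) was found in 6 member windows and in 0.0769% of all 35116 windows. ERSE-II (ATTGGNCCACG) was found in 3 and in 0.0541%, and the UPR element (UPRE, TGACGTGG) in 1 and in 0.729%. The heat shock element of 3 alternating units (HSE, GAANNTTCNNGAA) was found in 2 member windows and in 0.49% of all windows. The ERSE and ERSE-II matches lay in 7 of 14 ER chaperone windows, 1 of 4 ERAD windows and 1 of 3 UPR windows, and the HSE matches in 2 of 11 cytosolic windows. In the same 41 windows the CCAAT box alone, which is part of the ERSE and of ERSE-II on the other strand, was present in 27, against 34.6% of all windows.

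The 7 ERSE matches in 6 genes are compared here, each read in the direction of the motif, with the fixed letters in capitals. NF-Y is known to bind the CCAAT part and ATF6 or XBP1 the CCACG part.
HSPA5, 66 bases before the start, chr9:125241391-125241409: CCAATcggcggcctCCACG
HSP90B1, 194 bases before the start, chr12:103930216-103930234: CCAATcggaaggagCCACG
HSP90B1, 89 bases before the start, opposite strand, chr12:103930321-103930339: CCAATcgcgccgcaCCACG
CALR, 225 bases before the start, opposite strand, chr19:12938384-12938402: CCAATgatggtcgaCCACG
CANX, 151 bases before the start, chr5:179698778-179698796: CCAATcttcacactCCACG
CRELD2, 80 bases before the start, opposite strand, chr22:49918554-49918572: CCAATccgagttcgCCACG
XBP1, 52 bases before the start, chr22:28800603-28800621: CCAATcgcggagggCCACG

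The ERSE-II matches were in HYOU1, SDF2L1 and HERPUD1, and HYOU1 held 2 of them, of which 1 overlapped its UPRE match. The 250 bases before the start are printed for 4 genes that the results below return to, on the strand of the gene, with ERSE or HSE matches in capitals. HSPA5, HSP90B1 and XBP1 stand for the ER arm and HSPA8, with 2 HSE matches, for the cytosolic arm.
HSPA5, minus strand, chr9:125241344-125241593: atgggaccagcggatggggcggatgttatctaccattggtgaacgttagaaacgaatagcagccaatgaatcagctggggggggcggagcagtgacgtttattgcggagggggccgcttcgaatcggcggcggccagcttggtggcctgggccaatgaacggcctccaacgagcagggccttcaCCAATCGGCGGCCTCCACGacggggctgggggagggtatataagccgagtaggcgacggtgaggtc
HSP90B1, plus strand, chr12:103930160-103930409: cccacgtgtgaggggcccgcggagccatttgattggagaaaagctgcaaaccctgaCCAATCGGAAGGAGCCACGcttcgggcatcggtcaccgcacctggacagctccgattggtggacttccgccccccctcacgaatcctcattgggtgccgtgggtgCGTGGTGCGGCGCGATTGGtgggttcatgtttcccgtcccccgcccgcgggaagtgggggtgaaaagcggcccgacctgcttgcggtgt
XBP1, minus strand, chr22:28800570-28800819: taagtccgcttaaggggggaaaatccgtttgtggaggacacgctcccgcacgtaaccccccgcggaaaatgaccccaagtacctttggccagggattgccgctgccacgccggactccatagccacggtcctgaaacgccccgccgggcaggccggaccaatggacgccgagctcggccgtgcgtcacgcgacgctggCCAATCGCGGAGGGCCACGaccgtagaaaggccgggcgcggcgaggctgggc
HSPA8, minus strand, chr11:123062137-123062386: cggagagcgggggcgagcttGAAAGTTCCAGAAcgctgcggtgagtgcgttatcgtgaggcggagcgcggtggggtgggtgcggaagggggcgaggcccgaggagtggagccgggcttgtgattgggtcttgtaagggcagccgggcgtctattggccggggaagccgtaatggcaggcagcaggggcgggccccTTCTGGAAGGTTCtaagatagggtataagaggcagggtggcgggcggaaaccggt
A match is a string of letters in a window and shows neither binding nor use in these cells.

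Library depth and labels were checked first. The total count per library was between 14073065 and 17054364, and each of the 44 genes had between 186 and 77283 counts in every library. KRT19 had 1 to 5 counts in EV libraries and 4353 to 5147 in KRT19 libraries (log2 fold change 10.75 ± 0.12 SE, adjusted p = 5.19e-20, edgeR quasi-likelihood test with Benjamini-Hochberg adjustment). Of 11 genes listed as markers of A549, 5 were above 3 counts in all 8 libraries. Among these, epithelial KRT8 and KRT18 were at 208 to 314 CPM (counts scaled to a common library size) as group means. KRT7, AKR1C1 and AKR1C2 were at 0.843 to 3.54 CPM. AKR1B10, ALDH3A1 and GPX2 had 0 to 14 counts, and ALDH1A1, AKR1C3 and EPCAM did not exceed 3 counts in any library. CDKN2A, CDKN2B and MTAP lie in a region of chromosome 9 that A549 is known to lack, and all 3 were detected in all 8 libraries, with a summed level between 174 and 196 CPM. The data thus go against the label on this point, and most of the listed A549 markers were low. The cells are therefore called the cells labelled A549. The label on extraction names retina, and the genes listed for it summed to 0.705 to 1.80 CPM. RCVRN and SAG had 0 counts in all 8 libraries, which allows up to 0.213 CPM in the shallowest, and NRL had 9 to 24 counts. Lists of leukocyte and liver genes summed to at most 0.304 CPM in any library, and fibroblast genes to 1.72 to 3.62 CPM, most of it COL1A1 (21 to 54 counts). KRT19 replicate 3 stood furthest from its group over all genes, with a mean absolute departure of 0.152 in log2 CPM against 0.105 to 0.129 in the other 7 libraries, and values without it are given beside several of the genes named here.

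Levels were compared between genes per kilobase of exon (CPM per kb). The cytosolic chaperones HSP90AB1, HSP90AA1 and HSPA8 were the most abundant of the 44, at 983, 607 and 557 CPM per kb in EV libraries. The ER arm was led by CALR at 259, HSPA5 at 199 and CANX at 147 CPM per kb, and the chaperonin by CCT3 at 167, CCT6A at 149 and CCT4 at 143 CPM per kb. The 8 CCT subunits stayed between 57.1 and 167 CPM per kb, whereas the 15 ER members ranged from 4.41 (DNAJC3, a J protein that inhibits the kinase PERK) to 259. ERAD genes lay between 5.67 and 10.6 CPM per kb, and ERN1 was the lowest of all members at 1.42 CPM per kb. The 44 genes together took 2.04% ± 0.0206 of the counts over EV and 2.14% ± 0.0350 over KRT19 libraries (± SD, n = 4). Of this, the 12 cytosolic genes took 1.06% ± 0.0117 and 1.15% ± 0.0355, and the 15 ER chaperones 0.458% ± 0.00576 and 0.459% ± 0.00906 (± SD, n = 4).

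**Figure D1:**
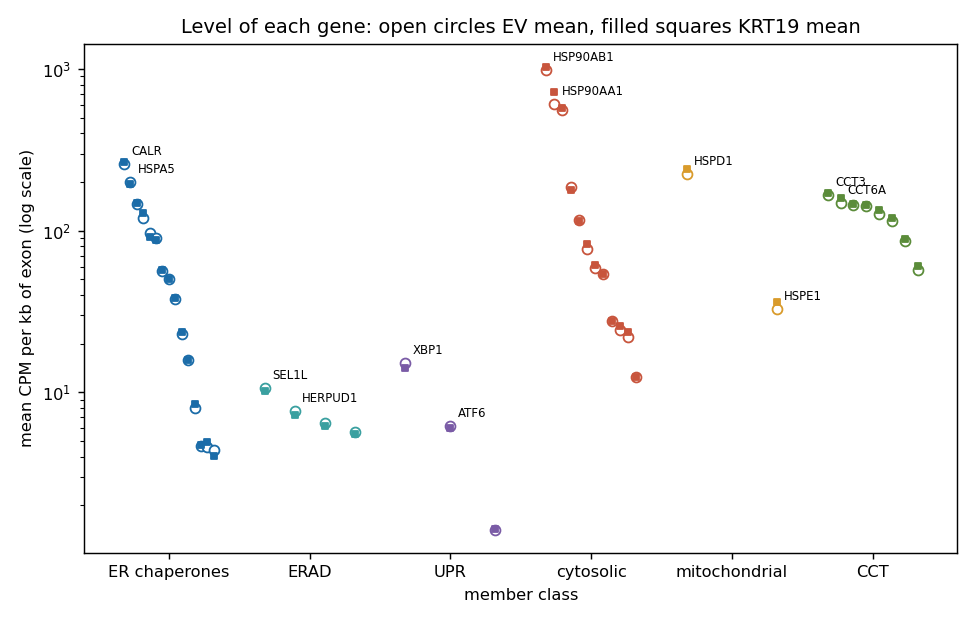
Mean CPM per kb of exon (log axis) of each of the 44 genes by class, with open circles for the mean of 4 EV libraries and filled squares for the mean of 4 KRT19 libraries, and the 2 highest genes of each class named. HSP90AB1, at 983 CPM per kb in EV, stands highest and ERN1, at 1.42, lowest, and both symbols nearly coincide for most genes.

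To determine whether folding genes changed with KRT19, each was compared between the groups in a fit over all 14621 expressed genes (edgeR quasi-likelihood test, Benjamini-Hochberg adjustment). None of the 44 members passed an adjusted p of 0.05 by edgeR or limma-voom over these genes, or by DESeq2 over 30244 genes, against 0.00684% of all genes tested in edgeR, which was KRT19 alone. The lowest adjusted p of a member was 0.869 in edgeR. At an unadjusted p under 0.05, the threshold the study used, 2 of 44 members were called (4.55%), against 5.41% of all genes. Both were higher in KRT19 libraries (2 of 44, against 2.85% of all genes) and 0 were lower (against 2.56%). The groups did not overlap for 3 of 44 members (6.82%), against 3.44% of all genes. The fold change was above 0 for 27 of 44 members (61.4%), against 52.2% of all genes, and the median log2 fold change was 0.026 over the members and 0.0051 over all genes. Among the 8819 tested genes at or above the lowest EV level of a member, 54.0% were above 0, with a median of 0.0068. How the members' share called at that p stood to the background depended on the fit. It was below it in edgeR, whereas limma-voom called 9 of 44 members (20.5%, against 9.14% of all genes), edgeR with GC and length trends removed 9 of 44 (20.5%, against 8.25%) and DESeq2 5 of 44 (11.4%, against 3.71% of the genes tested in edgeR). HSP90AA1, HSP90AB1, HSPD1, HSPE1 and CCT6A were higher in all 3 of these fits. Leaving out 1 library moved the fold change of 36 of the 44 members by over 1.5 times or turned its sign. The other 8 were HSPA4, HSP90AB1, HSPD1, HSPE1, CCT2, CCT5, CCT6A and CCT8. In bulk RNA, fewer cells that express a gene and less of its RNA per cell cannot be told apart.

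**Figure D2:**
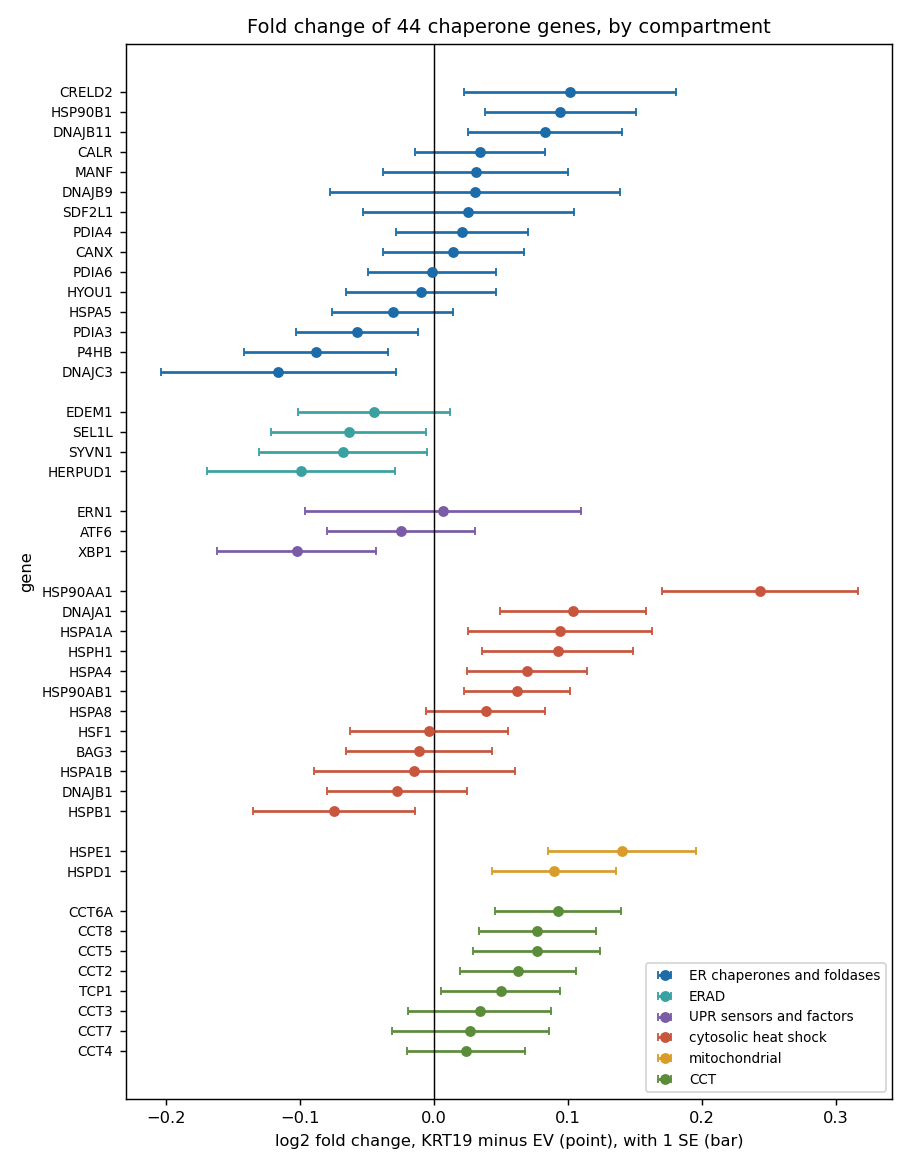
Log2 fold change (KRT19 minus EV, horizontal axis) of each gene, with bars of 1 SE from edgeR, ordered and colored by class. HSP90AA1, at 0.24, stands to the right of all others, the 4 ERAD genes lie below 0 and the 8 CCT genes above 0, and no gene passed the adjusted threshold.

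The class medians lay on both sides of 0. The median log2 fold change was 0.021 for ER chaperones and foldases (9 of 15 above 0), and -0.0028 without KRT19 replicate 1, the 1 library whose removal turned its sign. It was -0.066 for ERAD (0 of 4) and -0.025 for UPR sensors and factors (1 of 3). With single libraries left out, the ERAD median ran from -0.076 to -0.042 and the UPR median from -0.094 to -0.0028. Every one of these medians is from edgeR. The median was 0.050 for cytosolic heat shock genes (7 of 12 above 0), 0.12 for the mitochondrial pair (2 of 2) and 0.056 for CCT (8 of 8). Members of 1 class share libraries and are not replicates, and no test was made over a class. CCT3 fell below 0 without KRT19 replicate 1, and CCT7 without KRT19 replicate 1 or EV replicate 1, so the count for CCT rests on those libraries.

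Class scores, the mean log2 CPM of the members of a class, show the same by library. Set against the EV mean, the ERAD score was 0.0206, 0.00395, -0.00158 and -0.0230 in EV replicates 1 to 4, and -0.0840, -0.0303, -0.0908 and -0.0735 in KRT19 replicates 1 to 4. All 4 KRT19 libraries were below all 4 EV libraries. This describes these 4 genes. Of 21 other ERAD genes tested, 8 had a fold change above 0 (38.1%, against 52.2% of all genes), with a median of -0.017 in log2 units. The cytosolic score was -0.0496, 0.0101, 0.0268 and 0.0128 in EV libraries and 0.0723, 0.0368, 0.0307 and 0.0491 in KRT19 libraries, again without overlap, with EV replicate 1 the farthest from the rest. The difference of group means was smaller without EV replicate 1. Without HSP90AA1 the groups of this score overlapped, with KRT19 replicate 3 below most EV libraries. The ER chaperone score overlapped, from -0.0253 to 0.0244 in EV and from -0.0288 to 0.0343 in KRT19 libraries. The CCT score ran from -0.0284 to 0.0319 in EV and from 0.0154 to 0.0801 in KRT19 libraries. The groups overlapped through KRT19 replicate 3, the lowest of its group.

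**Figure D3:**
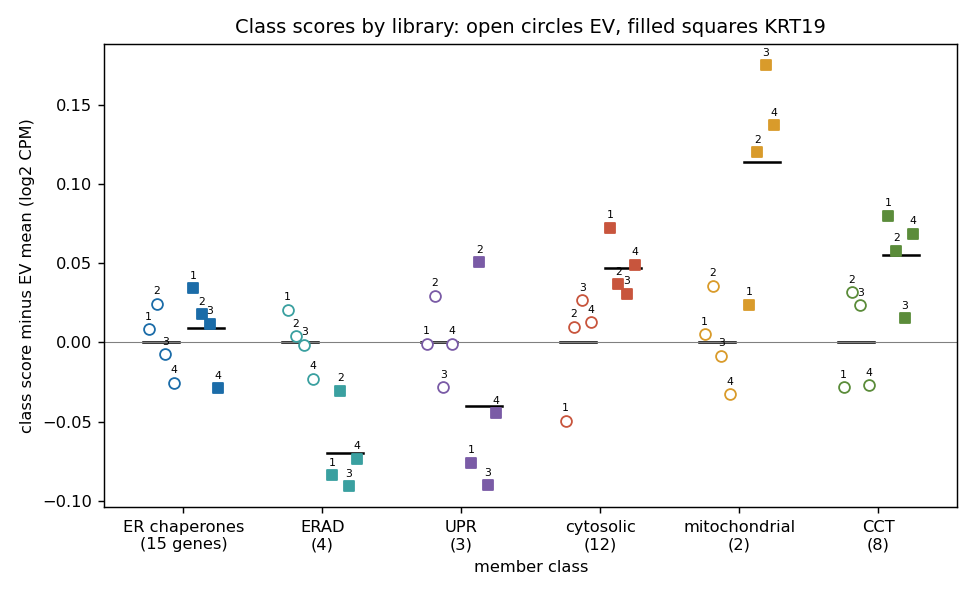
Class score of each library minus the mean of the 4 EV libraries (vertical axis, log2 CPM), for the 6 classes, with open circles for EV, filled squares for KRT19, replicate numbers beside the points and group means as bars. EV and KRT19 points separate for the ERAD members, where KRT19 is lower, and for cytosolic genes, where KRT19 is higher by 0.047 on average, and overlap in the other 4 classes. The cytosolic difference is smaller without EV replicate 1, and the cytosolic groups overlap without HSP90AA1.

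The ER and cytosolic arms were compared within each library as the difference of their scores. ER minus cytosolic was -1.25, -1.30, -1.33 and -1.34 in EV replicates 1 to 4 and -1.34, -1.33, -1.34 and -1.39 in KRT19 replicates 1 to 4. The groups overlapped, and EV replicate 1 was the highest of all. The mean was -1.31 ± 0.040 over EV libraries and -1.35 ± 0.027 over KRT19 libraries (± SD, n = 4), a change of -0.043, which became -0.025 without EV replicate 1, -0.030 without KRT19 replicate 4 and -0.024 without HSP90AA1. Against CCT, the ER score changed by -0.047 (-0.030 without KRT19 replicate 4) and overlapped too. The cytosolic score minus the CCT score changed by -0.0037. The change between the arms was thus close in size to the pooled SD of the libraries, 0.034.

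Among the ER chaperones, HSPA5, the Hsp70 of the ER and the usual readout of ER stress, was at 787, 805, 768 and 750 CPM in EV replicates 1 to 4 and at 768, 800.1, 738 and 740 in KRT19 replicates 1 to 4. The ranges overlapped over most of their width. Its log2 fold change was -0.031 ± 0.045 (SE), and ran from -0.055 to -0.015 when single libraries were left out. HSP90B1 (GRP94, the HSP90 of the ER) was at 573, 600.3, 516 and 566 CPM in EV and 586, 589, 661 and 571 in KRT19 libraries. The lowest value was in EV replicate 3 and the highest in KRT19 replicate 3, and the other 6 libraries lay between 566 and 600.3. Its log2 fold change was 0.094 ± 0.056 (SE), at an unadjusted p of 0.112 in edgeR, and it fell to 0.046 when KRT19 replicate 3 was left out and to 0.054 when EV replicate 3 was.

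CALR, the soluble lectin chaperone, was at 658, 715, 746 and 689 CPM across EV libraries and 747, 706, 728 and 695 CPM across KRT19 libraries, and the groups overlapped (log2 fold change 0.034 ± 0.048 SE, or 0.0045 without EV replicate 1 and 0.065 without EV replicate 3). CANX, its membrane-bound counterpart, was at 956, 906, 891 and 914 CPM in EV and 848, 943, 1010.0 and 903 in KRT19 libraries. Both the lowest and the highest CANX value fell in the KRT19 group, and the log2 fold change was 0.014 ± 0.052 (SE). The protein disulfide isomerases PDIA3, PDIA4, PDIA6 and P4HB had log2 fold changes between -0.088 (P4HB) and 0.021 (PDIA4), and P4HB was at -0.035 without KRT19 replicate 3. The counts of PDIA3 are uncertain, since 11.7% of its 75-base words also occur elsewhere, mainly in the pseudogene PDIA3P1.

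The J proteins of the ER hand clients to HSPA5. DNAJB9, which also holds IRE1 inactive, had the widest spread within groups of all members (SD of 0.17 in log2 CPM). It was at 16.3, 11.6, 12.5 and 12.6 CPM across EV libraries and 12.3, 13.2, 14.9 and 13.6 CPM across KRT19 libraries, so EV replicate 1 alone was above every other library. Counting error would give an SD of 0.099 at this depth. DNAJB11 and DNAJC3 had log2 fold changes of 0.083 ± 0.057 and -0.12 ± 0.088 (SE), which came down to 0.051 without EV replicate 3 and -0.066 without EV replicate 2. The remaining UPR targets were HYOU1, the nucleotide exchange factor of HSPA5, with -0.0096, SDF2L1 with 0.026, CRELD2 with 0.10 (0.040 without KRT19 replicate 1) and MANF, a secreted protein that responds to ER calcium loss, with 0.031 on the log2 scale. All of their groups overlapped.

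The 4 ERAD genes had fold changes below 0, none at an unadjusted p under 0.05 in edgeR. HERPUD1, a membrane scaffold of ERAD and a UPR target, was at 37.6, 41.9, 39.9 and 39.7 CPM across EV libraries and 40.9, 39.2, 33.3 and 35.3 CPM across KRT19 libraries. KRT19 replicates 3 and 4 were below every EV library and replicates 1 and 2 were within the EV range. The log2 fold change was -0.099 ± 0.070 (SE), and -0.048 without KRT19 replicate 3. SYVN1, the ubiquitin ligase HRD1, and its partner SEL1L changed by -0.068 ± 0.063 and -0.063 ± 0.058, and EDEM1, which selects mannose-trimmed glycoproteins, by -0.045 ± 0.057 (SE). SYVN1 was at -0.039 without EV replicate 1 and EDEM1 at -0.024 without KRT19 replicate 1. With GC and length trends removed, SEL1L was at -0.11 ± 0.041 (SE), with an unadjusted p of 0.0176 and an adjusted p of 0.493 in edgeR, whereas the uncorrected value ran from -0.095 to -0.021 when single libraries were left out (-0.021 without KRT19 replicate 1). SYVN1 exons overlap those of FAU on 398 bases of the same strand and those of MRPL49 on the other strand.

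Of the 3 UPR sensors and factors, 1 gene was without overlap, as were 3.44% of all genes. XBP1 was at 45.3, 44.5, 43.7 and 49.8 CPM across EV libraries and 43.4, 41.9, 42.0 and 43.4 CPM across KRT19 libraries. All KRT19 libraries were below all EV libraries, by 0.273 CPM at the closest, and EV replicate 4 was well above the other 3. The mean was 45.8 ± 2.75 over EV libraries and 42.7 ± 0.832 CPM over KRT19 libraries (± SD, n = 4). The exact permutation test gave p = 0.0286 (two-sided), the smallest that 4 against 4 allows, and edgeR gave a log2 fold change of -0.10 ± 0.059 (SE) with an unadjusted p of 0.102. Without EV replicate 4 it was -0.060. Gene counts do not separate spliced from unspliced XBP1 mRNA, so IRE1 activity was not measured. ERN1 was at 14.9, 17.3, 15.1 and 14.2 CPM in EV and 14.7, 18.9, 13.7 and 14.7 in KRT19 libraries. Replicate 2 was the highest in both groups, and the log2 fold change was 0.0068 ± 0.10 (SE). ATF6 was at 50.5, 47.2, 48.7 and 48.1 CPM in EV and 45.6, 48.0, 48.9 and 48.6 in KRT19 libraries, which overlapped (-0.025 ± 0.055 SE, or -0.0028 without KRT19 replicate 1).

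In the cytosol, HSP90AA1, the stress-inducible HSP90 alpha, had the largest fold change and the lowest p of the 44 genes. It was at 3285, 3349, 2899 and 3217 CPM in EV replicates 1 to 4 and at 3425, 3514, 4518.5 and 3633 CPM in KRT19 replicates 1 to 4. All KRT19 libraries were above all EV libraries, EV replicate 3 was the lowest and KRT19 replicate 3 stood far above the rest. The mean was 3187 ± 199.8 over EV libraries and 3772 ± 505 CPM over KRT19 libraries (± SD, n = 4). In log2 units the change was 0.24 ± 0.073 (SE), or 18.4%, with an unadjusted p of 0.00403 and an adjusted p of 0.869 in edgeR, at rank 61 of all genes. Its exact permutation p of 0.0286 (two-sided) follows from the lack of overlap alone. Of its 75-base words, 6.11% also occur elsewhere, mainly in the pseudogene HSP90AA2P. Without KRT19 replicate 3 the log2 fold change was 0.14, with an unadjusted p of 0.0045 in edgeR. With the looser filter, which keeps any gene with at least 1 count over all libraries, HSP90AA1 had an adjusted p of 4.38e-04 in edgeR, the 1 setting in which a member passed. That fit called 0.235% of 30250 genes.

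HSP90AB1, the constitutive HSP90 beta, differed less between groups and spread less within them. It was at 2915, 2898, 2954 and 2953 CPM across EV libraries and 3047, 3092.5, 3025 and 3073 CPM across KRT19 libraries. The groups did not overlap, and its spread within groups (SD of 0.014 in log2 CPM) was the smallest of the 44. In log2 units the change was 0.062 ± 0.040 (SE), or 4.41%, with an unadjusted p of 0.135 in edgeR, which moderates the spread of each gene toward that of genes at a similar level. The exact permutation p of 0.0286 again follows from the lack of overlap alone. The CPM ratio of HSP90AA1 to HSP90AB1 was 1.13, 1.16, 0.981 and 1.09 in EV and 1.12, 1.14, 1.49 and 1.18 in KRT19 libraries. The groups overlapped (exact permutation p = 0.143, two-sided), and KRT19 replicate 3 and EV replicate 3 were the extremes. The ratio of HSP90B1 to HSP90AA1, the ER against the cytosolic paralog, was 0.177 ± 0.00218 over EV libraries and 0.161 ± 0.0112 over KRT19 libraries (± SD, n = 4), without overlap (exact permutation p = 0.0286). Of the 7 ratios and sums examined, this was the 1 without overlap, and its exact permutation p was 0.2 after Benjamini-Hochberg adjustment over the 7.

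**Figure D4:**
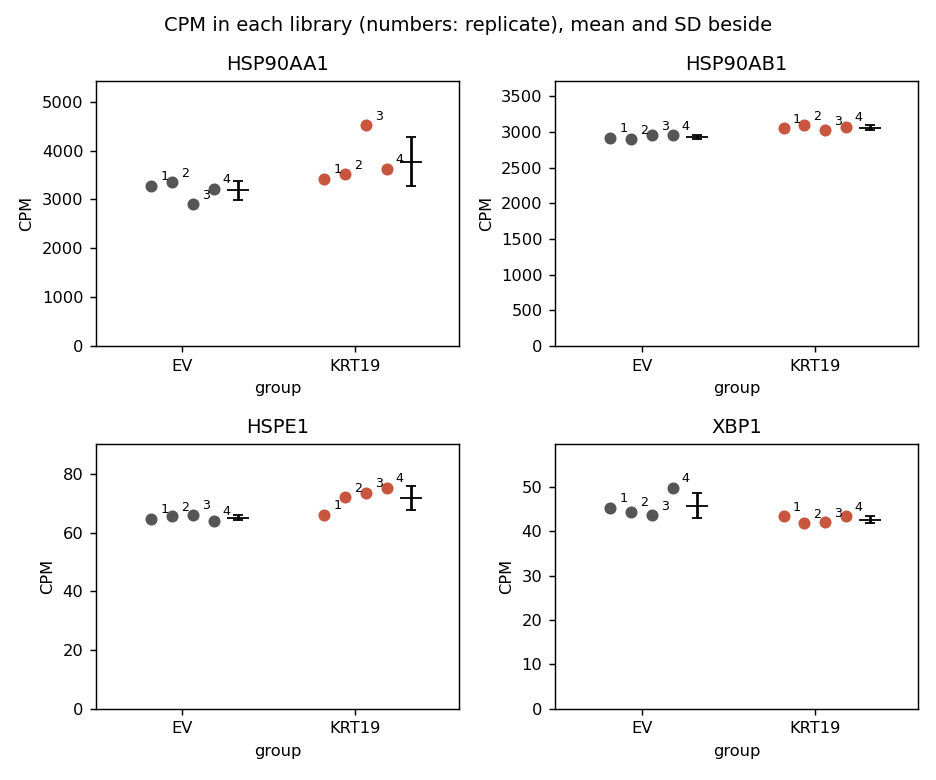
CPM in each library (points, with replicate numbers) for HSP90AA1, HSP90AB1, HSPE1 and XBP1 in the EV and KRT19 groups, with the mean and SD of 4 libraries beside the points and vertical axes that start at 0. KRT19 replicate 3, at 4518.5 CPM, stands apart for HSP90AA1, and the shifts of the other 3 genes are small beside their level.

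The other cytosolic genes overlapped between groups. HSPA8, the constitutive Hsc70, was at 2682, 2653, 2769 and 2691 CPM in EV and 2814, 2774, 2601 and 2900.2 in KRT19 libraries. KRT19 replicate 3 was the lowest of all 8 and the other 3 KRT19 libraries the highest, and the log2 fold change was 0.039 ± 0.045 (SE), and ran from 0.016 without KRT19 replicate 4 to 0.068 without KRT19 replicate 3. The stress-inducible HSPA1A and HSPA1B had log2 fold changes of 0.094 ± 0.069 and -0.015 ± 0.075 (SE). HSPA1A ran from 0.050 without KRT19 replicate 1 to 0.14 without KRT19 replicate 3, where its unadjusted p was 0.0337 in edgeR. The pair shares 71.2% of the 75-base words of HSPA1A, so their counts are uncertain singly, and their sum was 86.2 ± 7.18 CPM over EV libraries and 89.6 ± 5.90 CPM over KRT19 libraries (± SD over 4 libraries each, exact permutation p = 0.486). HSF1, the master factor, changed by -0.0039 ± 0.059 (SE), and DNAJB1, BAG3 and HSPB1 by -0.027, -0.011 and -0.074 on the log2 scale. With HSPA1B, they were the 5 of 12 cytosolic genes below 0, and the other 7 were above 0. HSPB1 ran from -0.13 without KRT19 replicate 1, at an unadjusted p of 0.0349 in edgeR, to -0.041 without KRT19 replicate 2. DNAJA1, HSPH1 and HSPA4, cochaperones and relatives of HSP70, changed by 0.10, 0.092 and 0.069, each with an unadjusted p above 0.05 in edgeR. HSPH1 ran from 0.048 without KRT19 replicate 3 to 0.12 without KRT19 replicate 1, and DNAJA1 from 0.066 without KRT19 replicate 3 to 0.14 without EV replicate 2, with unadjusted p-values of 0.046 and 0.0278 in edgeR at the upper ends.

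The mitochondrial chaperonin is a chamber of HSPD1 (HSP60) closed by a lid of HSPE1 (HSP10), whose genes lie head to head on chromosome 2 with promoter windows that share 204 of 300 bases. HSPE1 was at 64.7, 65.5, 66.2 and 64.0 CPM across EV libraries and 66.1, 72.1, 73.7 and 75.2 CPM across KRT19 libraries. KRT19 replicates 2 to 4 were above all EV libraries, and KRT19 replicate 1 was within the EV range. Its log2 fold change was 0.14 ± 0.055 (SE), at an unadjusted p of 0.0216 and an adjusted p of 0.906 in edgeR. The unadjusted p was 0.0541 without EV replicate 4 and 0.0762 without KRT19 replicate 4 (edgeR). HSPD1 was at 969, 999, 931 and 930 CPM across EV libraries and 974, 1021, 1078 and 1002 CPM across KRT19 libraries, with the highest values in KRT19 replicates 3, 2 and 4, and it changed by 0.090 ± 0.046 (SE). The CPM ratio of HSPE1 to HSPD1 was 0.0681 ± 0.00242 over EV libraries and 0.0705 ± 0.00331 over KRT19 libraries (± SD over 4 libraries each, exact permutation p = 0.314). HSPE1 and HSPD1 exons overlap on 281 bases of opposite strands, and 22.3% of the HSPE1 words occur in other genes.

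The 8 CCT subunits, which form 1 ring-shaped complex, had log2 fold changes from 0.024 (CCT4) to 0.093 (CCT6A), with unadjusted p-values of 0.0649 or higher in edgeR. With 1 library left out, CCT5 reached an edgeR p of 0.0375 (without KRT19 replicate 3) and CCT6A of 0.0300 and 0.0471 (without EV replicate 2 or KRT19 replicate 1), and CCT4 ran from 0.0089 to 0.040 on the log2 scale. At an unadjusted p under 0.05, limma-voom called CCT2, CCT5 and CCT6A higher, as it did 4.49% of all genes. DESeq2 and the fit with GC and length trends removed called CCT6A alone of the 8. CCT3 was at 646, 655, 716 and 665 CPM across EV libraries and 735, 683, 627 and 701 CPM across KRT19 libraries. The KRT19 group held the lowest and the highest value. CCT4 was at 399, 413, 417 and 393 CPM across EV libraries and 414, 423, 399 and 414 CPM across KRT19 libraries. CCT6A was at 585, 615, 569 and 554 CPM across EV libraries and 598, 608, 645 and 625 CPM across KRT19 libraries, where EV replicate 2 fell inside the KRT19 range. CCT4 overlapped over most of its range and CCT6A only through that library.

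Part of the spread between libraries followed base composition. For each library, the departure of the 44 genes from the mean of the other 3 libraries of the group was set beside the GC content of their longest transcripts. Across the 44 genes, which share each library, Pearson's r was -0.641, -0.262, 0.762 and 0.289 in EV replicates 1 to 4 and 0.739, -0.0882, -0.646 and 0.187 in KRT19 replicates 1 to 4. In KRT19 replicate 3 the 11 members with the lowest GC were higher by a median of 0.15 in log2 CPM and the 11 with the highest GC lower by 0.12. In EV replicate 3 the signs were opposite, at -0.089 and 0.11. HSP90AA1, with 45.2% GC, departed by 0.36 in KRT19 replicate 3 and by -0.18 in EV replicate 3. With GC and length trends removed from each library, its log2 fold change was 0.24 ± 0.063 (SE), with an unadjusted p of 9.40e-04 and an adjusted p of 0.218 in edgeR. HSPE1 and XBP1 were at 0.16 ± 0.049 and -0.13 ± 0.058 (SE) in that fit. At an unadjusted p under 0.05 it called HSP90AA1, HSP90AB1, HSPA1A, HSPD1, HSPE1 and CCT6A higher (13.6% of members, against 4.44% of all genes) and DNAJC3, SEL1L and XBP1 lower (6.82%, against 3.81%). The part of base composition in the other results was not tested beyond this correction.

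**Figure D5:**
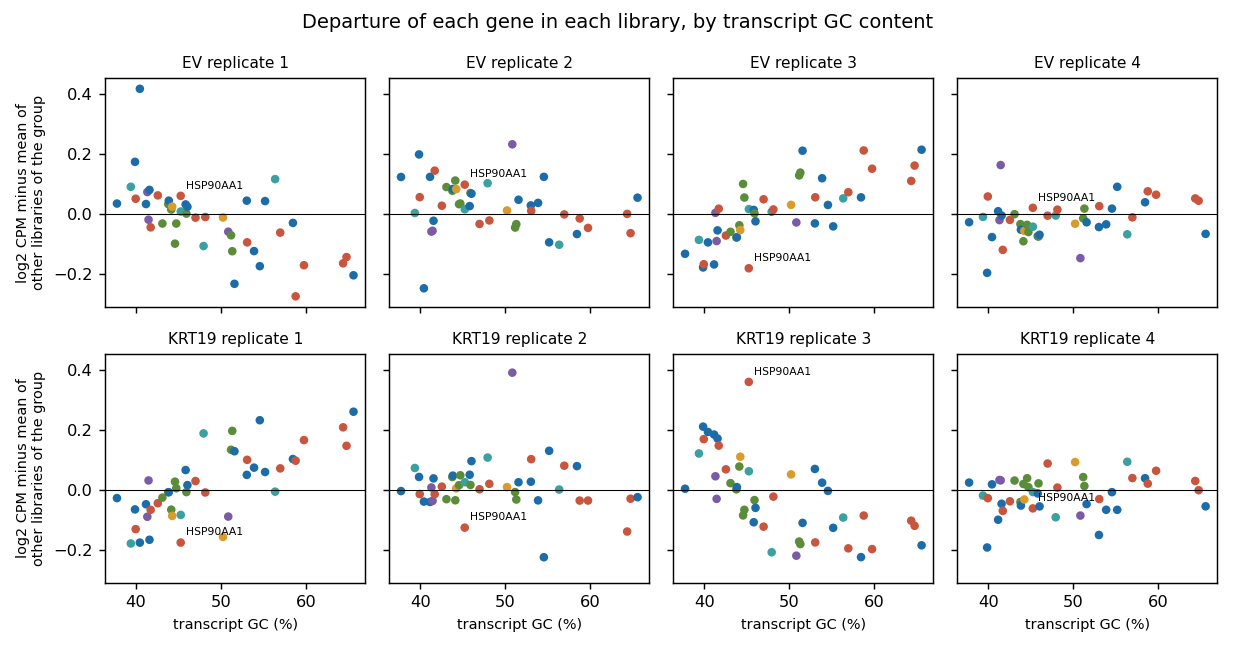
Departure of each of the 44 genes from the mean of the other 3 libraries of its group (vertical axis, log2 CPM) against the GC content of its longest transcript (horizontal axis, percent), 1 panel per library, colored by class as in the plot of fold changes, with HSP90AA1 named. The points slope up in EV replicate 3 and KRT19 replicate 1 (r of 0.762 and 0.739) and down in EV replicate 1 and KRT19 replicate 3 (r of -0.641 and -0.646).

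Further genes of the same pathways were read from 2 lists. Of 79 other ER genes tested (translocation, oxidation and isomerases, glycan quality control, ERAD and UPR regulators), 0 passed the adjusted threshold in edgeR, 0 were higher and 1 was lower at an unadjusted p under 0.05, and 30 had a fold change above 0, with a median of -0.022. These are 1.27% called, against 5.41% of all genes, and 38.0% above 0, against 52.2%. The lower gene was ERO1A, the oxidase that recharges protein disulfide isomerases and is induced by hypoxia. ERO1A was at 125, 125, 116 and 116 CPM across EV libraries and 96.1, 112, 110 and 103 CPM across KRT19 libraries, without overlap. Its log2 fold change was -0.20 ± 0.058 (SE), with an unadjusted p of 0.00318 and an adjusted p of 0.869 in edgeR. The list held 4 genes without overlap (5.06%, against 3.44% of all genes). The other 3, chosen after their values were seen, were RNF5 (-0.11) and KDELR3 (-0.10), lower, and FKBP11 (0.15), higher.

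Of 62 other cytosolic and mitochondrial chaperone genes tested, 0 passed the adjusted threshold in edgeR, 2 were higher and 0 lower at an unadjusted p under 0.05, and 43 had a fold change above 0, with a median of 0.020. These are 3.23% higher, against 2.85% of all genes, and 69.4% above 0, against 52.2%. DNAJC2, a J protein at the ribosome, was at 46.3, 41.2, 36.6 and 42.9 CPM across EV libraries and 42.2, 45.0, 70.7 and 51.9 CPM across KRT19 libraries. CHORDC1, a cochaperone of HSP90, was at 47.0, 45.2, 37.5 and 42.2 CPM across EV libraries and 46.4, 47.8, 62.5 and 51.8 CPM across KRT19 libraries. Both were lowest in EV replicate 3 and highest in KRT19 replicate 3, as HSP90AA1 was, and their groups overlapped. The log2 fold changes were 0.33 ± 0.12 and 0.28 ± 0.089 (SE). Without KRT19 replicate 3 they were 0.15 and 0.18, with unadjusted p-values of 0.0592 and 0.0176 in edgeR. HSPA9, the mitochondrial Hsp70, was the 1 gene of this list without overlap (1.61%, against 3.44% of all genes), also chosen after its values were seen, at 505 ± 12.98 over EV libraries and 526 ± 5.80 CPM over KRT19 libraries (± SD, n = 4).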

How the data were processed

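RNA-seq was measured in 4 EV and 4 KRT19 libraries, with groups and replicate numbers taken from the sample titles. The authors deposited a table of raw read counts per gene on hg38, not normalized. The submitters' processing notes name Bowtie 0.12.2, featureCounts 1.5.0-p3 and DESeq2, and the handling of strand and of reads that match several genes is not given in the sources used here. The kit was NEBNext Ultra, with total RNA as input. All 58735 genes matched GENCODE 29 by start, end and length. The labels do not say whether libraries came from separate cultures, so p-values measure only the spread between these libraries.

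The counts went into edgeR 4.0.16 under R 4.3.3 (filterByExpr, TMM, glmQLFit and glmQLFTest over all 14621 expressed genes, which held at least 99.8% of each library, Benjamini-Hochberg adjustment, two-sided). CPM used TMM-scaled library sizes, and log2 CPM a prior count of 2. A level of 3 counts was taken as the floor, 0.175 to 0.213 CPM, which covers counting error only. Differences within groups exceeded sampling noise (chi-square per degree of freedom 2.82 to 13.8), and the total count was 14073065 to 17054364. Same-numbered libraries did not deviate together (residual correlations -0.111, -0.0239, -0.159 and 0.0567), so no pairing was used. Single values were compared by exact permutation over the 70 arrangements of the libraries, where any value without overlap gets p = 0.0286. The members and gene lists were chosen with earlier results of these data known. Of the members, those with an unadjusted p under 0.05, those without overlap, the 3 most abundant of 3 classes, the UPR class and the most variable gene are given per library by rule, and HSP90B1, HERPUD1 and HSPD1 were added after their values were seen. From the other lists, genes with an unadjusted p under 0.05 are named.

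Alternatives were DESeq2 1.42.0 (over all 30244 genes with a count and a p-value), limma 3.58.1 (voom with sample quality weights), DESeq2 size factors, upper-quartile scaling, a looser filter (1 count over all libraries), a stricter one (5 CPM in 4 libraries), a replicate block, removal of GC and length trends (splines with 5 degrees of freedom), both together, library sizes without KRT19 and mitochondrial genes, and leaving out each library. The fit was tested on simulated data with the means and library sizes of these samples. Of genes changed by 1, 0.5 and 0.25 on the log2 scale, 90.3%, 74.5% and 15.2% passed the adjusted threshold, among 14468, 14463 and 14458 genes, with 11, 15 and 2 false calls. Promoter windows are from RefSeq, on GRCh38.p14.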

Additional observations from a re-analysis of the deposited data

Results flagged for a closer look

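In 104 groups of 4 libraries (44 genes and 8 scores in EV and in KRT19), the highest and lowest library were set against Dixon's 95% criterion, which divides the gap to the next library by the whole range. An excess happened 3 times, where chance gives about 5.2. HSPH1, an HSP110 that reloads HSP70, had its lowest value in EV replicate 3 (7.54 in log2 CPM, where the other 3 held 7.70 to 7.71), a gap of 0.967 of the range. EDEM1 was lowest in EV replicate 4, at 5.23 against 5.27 to 5.28 (0.864 of the range). BAG3, a cochaperone of HSP70 in selective autophagy, was lowest in KRT19 replicate 3, at 7.06 against 7.24 to 7.27 (0.85 of the range). HSPH1 has a low and BAG3 a high transcript GC content among the members, at 39.95% and 56.9%, and the part of GC content in these gaps was not tested.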

How the results depend on the processing

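The fold changes of the 44 members, the class medians and the counts of calls at a p were recomputed under 18 alternatives, and the differences of ER from cytosolic and CCT scores under all of these but the tests of DESeq2 and limma-voom, which give no such value. The other pathway genes were refitted only with single libraries left out, and the ratios, the counts without overlap and the tallies of the 2 lists under no alternative. The number of members past the adjusted threshold was 0 and became 1 with the looser filter (HSP90AA1, adjusted p = 4.38e-04, edgeR with Benjamini-Hochberg adjustment). Over all genes the number was 1, and rose to 71 under the looser filter, 8 in limma-voom, 3 in DESeq2 and 5 after the GC and length correction (5 again with the replicate block added), and was 1 to 5 when single libraries were left out (3 without EV replicate 1, 5 without KRT19 replicate 3). At an unadjusted p under 0.05 it was 791, and became 451 under the replicate block, 1206 after the GC and length correction, 1337 in limma-voom and 1559 under the looser filter (5.15% of 30250 genes, against 5.41% of 14621), and was 622 to 1229 when single libraries were left out (1229 without KRT19 replicate 1). The number of members higher at that p was 2, and became 1 under the replicate block (HSP90AA1; 2.27%, against 1.56% of all genes), 5 in DESeq2 (11.4%, against 2.05% of the genes tested in edgeR), 6 after the GC and length correction (13.6%, against 4.44% of all genes; with the replicate block added 2, HSP90AA1 and HSPE1, or 4.55% against 3.53%) and 8 in limma-voom (18.2%, against 4.49%), and was 1 to 5 when single libraries were left out (5 without EV replicate 2 or KRT19 replicate 1, 11.4% against 2.72% and 4.87% of all genes in those fits, 4 without KRT19 replicate 3, 9.09% against 2.49%, and 1 without EV replicate 4 or KRT19 replicate 4, 2.27% against 2.18% and 2.51%). The number lower was 0, and became 1 in limma-voom (2.27%, against 4.66% of all genes) and 3 after the GC and length correction (6.82%, against 3.81%, or 3.10% with the replicate block added), and was 0 to 1 when single libraries were left out (1 without KRT19 replicate 1, HSPB1, 2.27% against 3.42%). The labels do not say that replicate numbers mark pairs. The replicate block, added to the fit without corrections, moved the medians by less than the spread between replicates. It cannot move the score differences, since log2 CPM values do not depend on it. Upper-quartile scaling turned the 417 higher and 374 lower genes into 322 and 474, with a median log2 fold change of -0.0068 over all genes. The cause was not tested in any of these cases.

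The ER chaperone median was 0.0090 with upper-quartile scaling and 0.0050 after the GC and length correction, and the UPR median -0.055 after the latter and -0.015 in limma-voom. When single libraries were left out, the ER chaperone median ran from -0.0028 to 0.027, the cytosolic median from 0.038 to 0.052, the mitochondrial from 0.094 to 0.14 and the CCT median from 0.043 to 0.074. The ER minus CCT difference ran from -0.061 to -0.030 and the ER minus cytosolic difference from -0.055 to -0.025. The ERAD median ran from -0.076 to -0.042 when single libraries were left out (-0.042 without EV replicate 1), and the UPR median from -0.094 to -0.0028 (-0.094 without KRT19 replicate 2). Of the 44 members, 30 kept their sign in all 18 alternatives, and the other 14 had log2 fold changes of at most 0.034 in size. With limma-voom the sign turned for CANX (-0.011), PDIA4 (-0.012), PDIA6 (0.020), HSF1 (0.0049) and BAG3 (0.021), and with upper-quartile scaling for ERN1 (-0.0051). With the GC and length correction, without and with the replicate block, it turned for CANX (-0.015 and -0.016), PDIA6 (0.0050 and 0.0043), DNAJB9 (-0.0074 and -0.0051), HYOU1 (0.0043 and 0.0044), HSF1 (0.020 and 0.021), HSPA1B (0.00058 and 0.0040) and BAG3 (0.0025 and 0.0017). When single libraries were left out, CANX ran from -0.030 to 0.054, PDIA6 from -0.019 to 0.025, DNAJB9 from -0.031 to 0.14, HYOU1 from -0.042 to 0.021, SDF2L1 from -0.045 to 0.082, MANF from -0.023 to 0.086 and ERN1 from -0.097 to 0.068. HSF1 ran from -0.043 to 0.038, HSPA1B from -0.077 to 0.040, DNAJB1 from -0.053 to 0.015, BAG3 from -0.031 to 0.035, CCT3 from -0.00044 to 0.075 and CCT7 from -0.024 to 0.071. Depth limited ERN1, DNAJB9 and DNAJC3 most, for which counting error alone gives an SD of 0.092, 0.099 and 0.074 in log2 CPM.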
